A study of Oryctolagus cuniculus with 34 samples.

Results

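The supraspinatus muscle of the repaired left shoulder was compared with that of the right shoulder of the same rabbit 2 weeks after repair of its tendon. Libraries were chosen by their labels, group tenotomy_repair or control at time code 82, a code taken here to mean repair after 8 weeks of tenotomy and harvest 2 weeks later. This gave 10 of the 34 libraries and 5 of the 17 rabbits of the series, 1 library from each shoulder of rabbits 59, 60, 61, 62 and 64. All were female New Zealand White rabbits, given as about 6 months old in the study's methods. The paper puts them at an older age by the end of the experiment, and the age of this group at harvest is not stated. In the repair group the left tendon was cut from the humerus and, after 8 weeks of retraction, sutured back through bone tunnels; no torn and unrepaired shoulder of 2 weeks was analysed here, so the tear and the repair cannot be told apart. The right shoulder is the control, unoperated by the study's methods and called a sham by the labels, and treatment and body side coincide in every animal. RNA came from 1 piece at the centre of the posterior lateral region of each muscle, a region chosen by the study's design.

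The supraspinatus lifts and steadies the shoulder, and its tendon is the one most often torn in the rotator cuff. Muscle cut off from its tendon shortens, loses fibre mass and gains fat and fibrous tissue between the fibres. Fibro-adipogenic progenitors, stromal cells that carry PDGFRA, are the known source of much of that matrix and fat, while satellite cells rebuild fibres and macrophages clear debris. Fibres themselves hold the sarcomere, the mitochondria that supply it with ATP and the proteasome, which degrades proteins marked with ubiquitin.

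The values are RSEM expected counts per gene, scaled as CPM (counts per 1000000 counts of a library) after TMM normalisation. Repair libraries held 10364906 to 12332438 counts on genes and control libraries 9859418 to 10638930. A gene was tested if before TMM it passed a CPM of 1 in at least 1 of the 10 libraries, which left 12630 of 23669 genes. The log2 fold change (log2FC) compares repair with control. A gene is "called" at a limma-voom adjusted p under 0.05, and DE (differentially expressed) if in addition it changed by more than 2-fold. A value in brackets after a fit or a left-out library is the adjusted p of that fit. Values by library are given in the order of rabbits 59, 60, 61, 62 and 64. Human gene symbols were at hand for 3308 of the tested genes. Gene lists hold the members with a symbol that passed this filter, which is 28 of 28 for the mitochondrial ribosome, 34 of 40 for matrix glycoproteins, 14 of 32 for the proteasome and 4 of 16 for adipocyte markers.

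The repair library of rabbit 59 stood apart. Across genes its log2 CPM correlated at r = 0.819 with the average of the remaining repair libraries, against 0.943 to 0.961 for each of the other 4, and control libraries lay between 0.968 and 0.976. It held 12091 genes above a CPM of 1, while the repair libraries of rabbits 60, 61, 62 and 64 held 10337, 10626, 11498 and 10464 and control libraries 10195 to 10469. On the first principal component, 54.3% of the variance, its score was -186.9 and that of the repair library of rabbit 62 was -85.5, with the other 8 libraries between 6.17 and 55.2. Of the 12630 genes, 680 passed the filter through the repair library of rabbit 59 alone. Calls and list counts are therefore also given without rabbit 59. Below, a single library is named by its group and rabbit (repair 59, control 60).

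**Figure D1:**
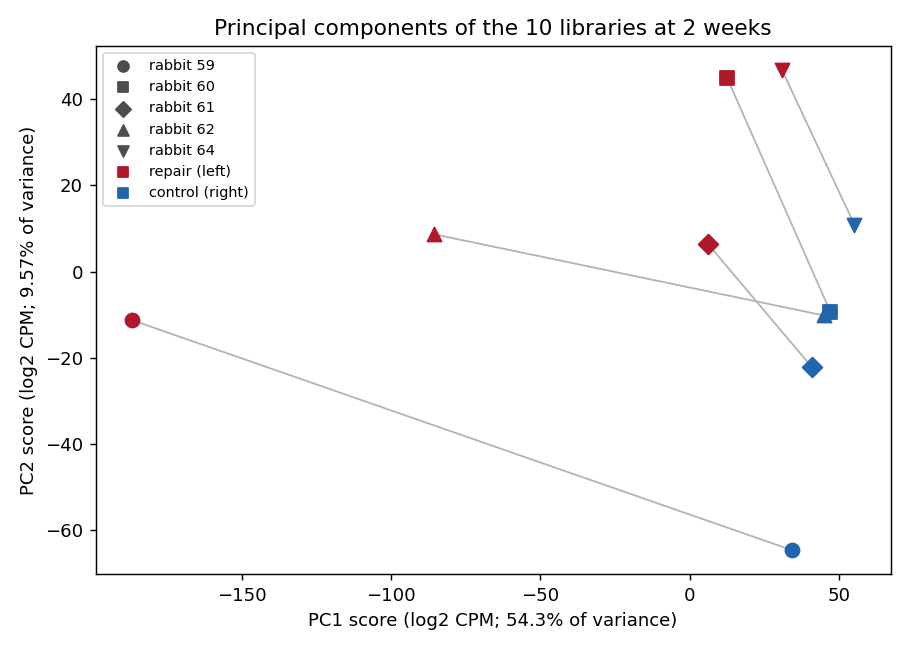
First 2 principal components of log2 CPM over the 12630 genes tested (score on each axis, with the share of variance), 1 point per library, red for repair and blue for control, a grey line joining the shoulders of a rabbit. The repair libraries of rabbits 59 and 62 lie at -186.9 and -85.5 on the first component and the other 8 libraries at 6.17 to 55.2.

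Muscle markers were high in every library. The 7 myofiber markers summed to 9380, 39800, 31500, 15900 and 44300 CPM in repair and 20800, 28700, 32500, 35800 and 47700 CPM in control muscle, so the repair libraries of rabbits 59 and 62 held the least muscle signal. The 4 markers of tenocytes and cartilage were high in the same libraries, at 2480, 22.1, 127, 707 and 9.70 CPM in repair and 20.0 to 35.7 CPM in control muscle. The 7 stromal markers summed to 2590, 281, 587, 1700 and 259 CPM in repair and 242 to 373 CPM in control muscle, and the 3 adipocyte markers to 568, 171, 299, 711 and 124 CPM against 87.7 to 123 CPM. Macrophage markers (7 genes) reached 502 CPM in rabbit 59 and 132 CPM in rabbit 62, with 6.11 to 19.2 CPM in the other 3 repair libraries and 8.61 to 15.7 CPM in control muscle. In bulk tissue fewer cells of a type and less RNA per cell cannot be told apart. The part that any of these cell types has in the gene results was not tested.

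**Figure D2:**
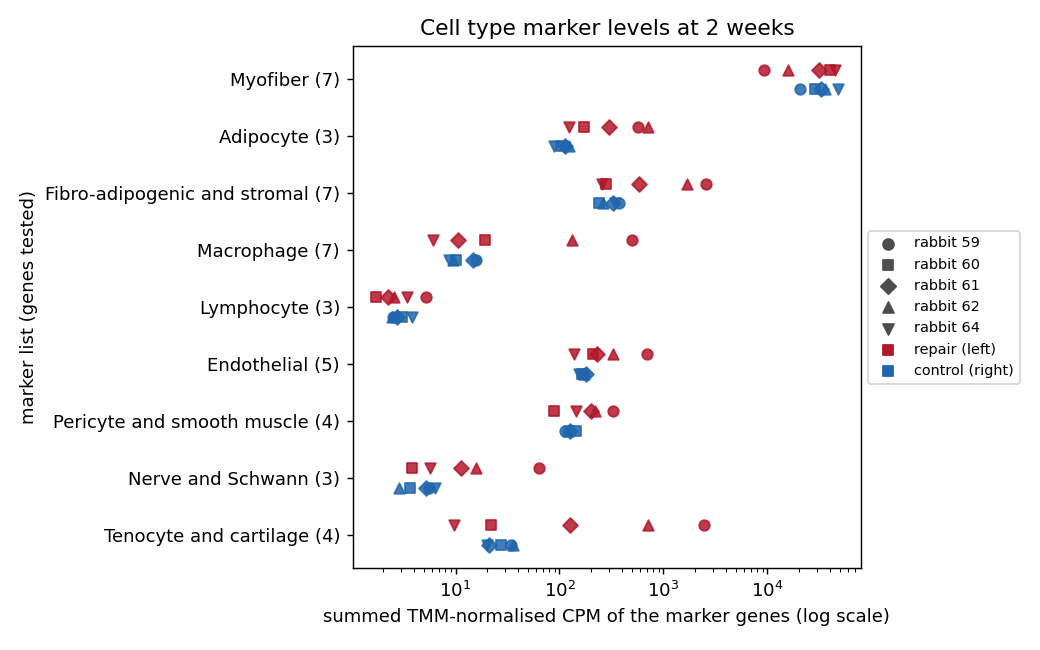
Summed TMM-normalised CPM (log scale) of the marker genes of 9 cell types, each row 1 marker list with its number of genes tested, red for repair and blue for control, the symbol giving the rabbit. Tenocyte and cartilage markers run from 9.70 to 2480 CPM in repair and from 20.0 to 35.7 CPM in control libraries, and myofiber markers from 9380 to 44300 CPM and from 20800 to 47700 CPM.

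In the fit that treats the shoulders as independent, 631 genes (5% of those tested) were DE and higher after repair and 123 (0.974%) DE and lower. Without the minimum fold, 1044 genes (8.27%) were called higher and 1041 (8.24%) lower, so that the falls were mostly smaller than 2-fold. The shoulders are paired by animal, and the fit with the rabbit as a block found 1685 DE genes higher and 135 lower, with 2486 genes (19.7%) called higher and 1625 (12.9%) lower. Of the 631 genes, 487 were higher in 5 of 5 rabbits, 256 did not overlap between repair and control libraries and 618 were DE with the block too. Of the 123, 112 were lower in 5 of 5 rabbits, 64 did not overlap and 96 were DE with the block. Over all genes tested 1007 (7.97%) did not overlap. The 631 and 123 genes were chosen on these same libraries, so these counts describe them and are no independent evidence of direction. The filter ties some of these directions to the groups: 163 of the 631 higher genes passed it in repair libraries alone, 31 of them only in repair 59, and 13 of the 123 lower genes passed it in control libraries alone.

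The count fell when rabbit 59 was left out, which also cut each group to 4 rabbits. Without the 2 libraries of rabbit 59, 38 genes were DE and higher and 5 lower, with 69 genes (0.546%) called higher and 86 (0.681%) lower. The 5 lower genes, named here because they are few, were ASB10, MAP11, ENSOCUG00000009953, ENSOCUG00000021449 and ENSOCUG00000024065. With the block as well, which compares the shoulders within the 4 other rabbits, 374 genes were DE and higher and 35 lower, and 569 (4.51%) and 376 (2.98%) were called. All 631 and all 123 genes kept their sign without rabbit 59, with the median log2FC moving from 1.62 to 1.24 and from -1.23 to -0.89. Of them 35 and 5 were still DE. They were chosen in a fit that holds the 4 other rabbits, so a kept sign is no independent evidence of direction. The rabbits differed in size of change: 3863, 1095, 1124, 2777 and 1072 of 12630 genes were more than 2-fold higher in repair than in the own control of rabbits 59, 60, 61, 62 and 64, and 2187, 620, 620, 525 and 616 more than 2-fold lower. Single libraries moved the number of higher DE genes from 631 to 91, 1163, 961, 214 and 1420 when repair 59, 60, 61, 62 or 64 was left out, and to 382, 241, 312, 281 and 275 for the controls of the same rabbits. For lower DE genes the counts were 19, 213, 212, 91 and 190, and 106, 89, 86, 99 and 109.

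Gene lists hold genes with a symbol, and such genes were called more often than genes in general, so list counts are read against them. Of the 3308, 423 (12.8%) were called higher and 282 (8.52%) lower, 942 (28.5%) and 411 (12.4%) with the block, 28 (0.846%) and 31 (0.937%) without rabbit 59, and 256 (7.74%) and 105 (3.17%) without rabbit 59 with the block. Their median log2FC was 0.15, and 0.05 over all genes tested. Some list members passed the filter in repair libraries alone, as did 1522 of all 12630 genes, which ties their direction to the groups. They enter the medians: 5 of 34 matrix glycoproteins, 5 of 22 matrix proteases and inhibitors, 4 of 19 leukocyte genes and 4 of 13 macrophage markers. There were 3 of 15 among TGF-beta genes and among integrins, and 2 of 7 among complement genes. Of members called in the main fit, only ADAMTS3 and GREM1 did so.

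Among DE genes with a symbol, a mean log2 CPM not under 1 and a rise in 5 of 5 rabbits, the 8 largest rises were those of SCD, CYP1B1, IGFBP4, CARD6, MFAP4, SVEP1, ENPP3 and LTBP2. SCD (ENSOCUG00000001375), the desaturase that makes oleate from stearate, lay at 95.8, 93.7, 38.6, 148 and 32.6 CPM in repair and 3.97, 11.4, 3.93, 8.69 and 3.78 CPM in control muscle. Every repair library lay above every control library. The log2FC was 3.60 (SE 0.71, adjusted p = 0.005102) and 3.37 without rabbit 59 (adjusted p = 0.0495), and the gene was called in every fit tried. The table holds another gene under the same symbol (ENSOCUG00000014801), described with the lipid genes, and reads shared between near copies may be split between them. IGFBP4 (ENSOCUG00000002828), which binds insulin-like growth factors in the tissue fluid, lay at 759, 72.2, 33.2, 172 and 15.01 CPM in repair and 9.23, 11.3, 11.2, 6.87 and 9.36 CPM in control muscle. All 5 repair values exceeded all control values, and rabbit 59 held the highest (log2FC 3.14, SE 0.71, adjusted p = 0.00934; 2.39 without rabbit 59, adjusted p = 0.0495). ENPP3, an ectoenzyme that splits extracellular nucleotides, was at 3.07 to 39.5 CPM in repair and 1.17 to 1.97 CPM in control muscle (log2FC 2.57, adjusted p = 0.0223, or 0.0699 without rabbit 59 and 0.0211 with the block too). CYP1B1, a cytochrome P450 that acts on steroids and aromatic compounds, rose from 0.902 ± 0.248 CPM to 19.1 ± 22.8 CPM (SD, n = 5; log2FC 3.43, adjusted p = 0.0469). CARD6, which carries a caspase recruitment domain, rose from 2.62 ± 0.429 CPM to 32.96 ± 36.05 CPM (SD, n = 5; log2FC 3.05, adjusted p = 0.0274). Neither was called without rabbit 59 (0.135 and 0.122), though both were with the block (0.0167 and 0.0167). The call of each was also lost without repair 59, repair 62 or any 1 of the control libraries (0.0504 to 0.0952).

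Fibrillar collagens, which form the tension-bearing fibres of tendon and scar, were higher after repair in 3 of the 6 members tested (background 12.8% of genes with a symbol), with none lower and a median log2FC of 2.19 over the list, or 1.39 without rabbit 59. COL1A1 (ENSOCUG00000012881), the main chain of type I collagen, lay at 14440.0, 87.5, 184, 3216 and 40.7 CPM in repair and 99.5, 58.6, 91.5, 41.5 and 50.1 CPM in control muscle. The values of rabbits 59 and 62 lay far above every control. That of rabbit 61 also lay above every control, by 1.01 on the log2 scale over its own. Rabbit 60 was 0.578 above its own control on that scale, and rabbit 64 was below its own. The log2FC of 2.79 (SE 0.88, adjusted p = 0.0325) averages over these rabbits. Repair 59 and 62 were also the libraries with the most tenocyte and cartilage signal (2480 and 707 CPM) and stromal signal (2590 and 1700 CPM), and the part of these cells in the collagen values was not tested. COL1A2 (ENSOCUG00000012264), its partner chain, lay at 18710.0, 167, 345, 4665 and 82.6 CPM in repair and 182, 123, 158, 102 and 111 CPM in control muscle, with the same order of rabbits. Its log2FC was 2.53 (SE 0.79, adjusted p = 0.0313, or 0.0643 with the block). COL5A3, a chain of type V collagen, was higher in 5 of 5 rabbits (31.4 to 336 CPM against 13.7 to 38.3 CPM; log2FC 1.53, SE 0.51, adjusted p = 0.0407). None of the 6 was called without rabbit 59 (adjusted p 0.176, 0.182 and 0.1498 for these 3), and with the block only COL11A1 was (adjusted p = 0.01599). These 3 calls were also lost without repair 59, repair 62 or control 60, 62 or 64 (adjusted p 0.0574 to 0.179), and that of COL5A3 without control 61 (0.064).

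Enzymes that fold, trim and cross-link collagen gave 2 of 13 members higher and none lower (median log2FC 1.43), near the 12.8% of genes with a symbol, and 13 of 13 with the block against 28.5%. Without rabbit 59 none of the 13 was called, or 1, ADAMTS3, with the block, and the median fell to 0.65. ADAMTS3, which trims the amino end of procollagen, lay at 5.06, 0.101, 0.292, 3.83 and 0.414 CPM in repair, with 3 counts in all over the 5 control libraries against 145 over the repair libraries. It passed the filter in repair libraries alone. The ratio of these sums per normalised library size was 37.4 (exact 95% interval 12.6 to 184, counting error only), and 2 repair libraries held most of the counts (adjusted p = 0.0265, or 0.108 without rabbit 59 and 0.0343 with the block too). PPIB, a proline isomerase of the endoplasmic reticulum, rose from 13.3 ± 0.883 CPM to 47.8 ± 55.2 CPM (SD, n = 5; log2FC 1.21, adjusted p = 0.0476) and was not called without rabbit 59 (0.221, or 0.102 with the block). Each was also lost without several single libraries (ADAMTS3 without repair 59 or 62 or control 60, 61 or 62, 0.05905 to 0.0831; PPIB without repair 59, repair 62 or any 1 of the control libraries, 0.0776 to 0.157).

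The sheet-forming and minor collagens with the other basement membrane proteins wrap fibres and vessels. They were higher in 8 of 20 members (background 12.8%) and lower in none (median log2FC 1.47, or 1.08 without rabbit 59). Without rabbit 59, 2 of 20 were called higher, and with the block 9, against 7.74% of genes with a symbol. LAMA3 (ENSOCUG00000009869), a laminin chain, lay at 20.1, 3.43, 5.74, 18.4 and 7.46 CPM in repair and 1.97, 2.17, 1.26, 2.97 and 3.48 CPM in control muscle. Each repair value exceeded the own control, and the groups overlapped by 1 library on each side (log2FC 2.08, SE 0.45, adjusted p = 0.00837; 1.73 without rabbit 59, adjusted p = 0.0495). COL4A1 (ENSOCUG00000013232), the core collagen of basement membranes, lay at 1465, 255, 258, 749 and 138 CPM in repair and 255, 143, 177, 97.2 and 120.3 CPM in control muscle. It was higher in 5 of 5 rabbits, by the least in rabbit 64 (log2FC 1.35, SE 0.35, adjusted p = 0.0167; 1.12 without rabbit 59, adjusted p = 0.0495). COL23A1, a transmembrane collagen, rose from 3.53 ± 1.09 CPM to 10.5 ± 3.83 CPM (SD, n = 5) with no overlap (log2FC 1.58, SE 0.39, adjusted p = 0.0136, or 0.0774 without rabbit 59 and 0.0245 with the block too). The call of COL4A1 was lost without repair 59 alone (0.0696) or repair 62 (0.0538), and those of LAMA3 and COL23A1 with no single library left out.

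Integrins bind cells to this matrix. Of 15 tested, 2 were higher, close to the 12.8% of genes with a symbol, and none lower (median log2FC 0.94). Without rabbit 59 the count was 1, ITGA6, or 3 with the block, and the median 0.50. ITGB4 and ITGA6 form the laminin receptor of hemidesmosomes and of Schwann cells. ITGB4 lay at 37.4, 6.05, 7.87, 14.2 and 9.87 CPM in repair and 1.35, 4.24, 5.34, 2.15 and 2.39 CPM in control muscle, without overlap (log2FC 2.17, SE 0.57, adjusted p = 0.0173), and was called without rabbit 59 only with the block (0.108 and 0.048). ITGA6 rose from 17.8 ± 5.804 CPM to 36.7 ± 21.1 CPM (SD, n = 5; log2FC 0.94, SE 0.25, adjusted p = 0.0175) and was called in either fit without rabbit 59 (0.0358, and 0.0245 with the block). Without repair 59, its control kept, neither was called (0.0537 to 0.0629).

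Matrix glycoproteins and proteoglycans space, decorate and link collagen fibres. They were higher in 11 of 34 members (background 12.8%) and lower in none (median log2FC 2.10, or 1.34 without rabbit 59). Without rabbit 59 the count was 1 of 34, OGN, and with the block 12, against 7.74% of genes with a symbol. OGN (ENSOCUG00000009017), osteoglycin, a small leucine-rich proteoglycan of connective tissue, lay at 811, 114, 148, 500 and 89.7 CPM in repair and 48.6, 46.6, 45.9, 48 and 54.96 CPM in control muscle. Control values were nearly equal, and every repair value lay above all of them (log2FC 2.17, SE 0.41, adjusted p = 0.00481; 1.75 without rabbit 59, adjusted p = 0.0358). SVEP1 (ENSOCUG00000016227), a large adhesion protein, lay at 209.6, 61.4, 29.6, 239 and 15.9 CPM in repair and 14.2, 7.14, 15.3, 10.6 and 10.3 CPM in control muscle. The groups did not overlap, and rabbit 62 was slightly above rabbit 59 (log2FC 2.58, SE 0.59, adjusted p = 0.009802). MFAP4 (ENSOCUG00000015162), which sits on elastic fibres, lay at 350.4, 17.96, 31.4, 109 and 14.7 CPM in repair and 6.12, 5.797, 11.2, 6.36 and 8.92 CPM in control muscle. The lowest repair value, that of rabbit 64, was above the highest control value (log2FC 2.73, SE 0.69, adjusted p = 0.0159). Without rabbit 59, SVEP1 and MFAP4 were at an adjusted p of 0.0653 and 0.0763, and at 0.01599 and 0.0213 with the block. LTBP2, which binds fibrillin and belongs to the family of latent TGF-beta binding proteins, rose from 1.62 ± 1.04 CPM to 13.3 ± 14.8 CPM (SD, n = 5; log2FC 2.56, SE 0.90, adjusted p = 0.0498). Its call was lost without rabbit 59 (0.229, but 0.0226 with the block) and when repair 59 or 62 or any control library was left out (0.0755 to 0.136), whereas OGN, SVEP1 and MFAP4 kept theirs in 10 of 10 such fits.

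**Figure D3:**
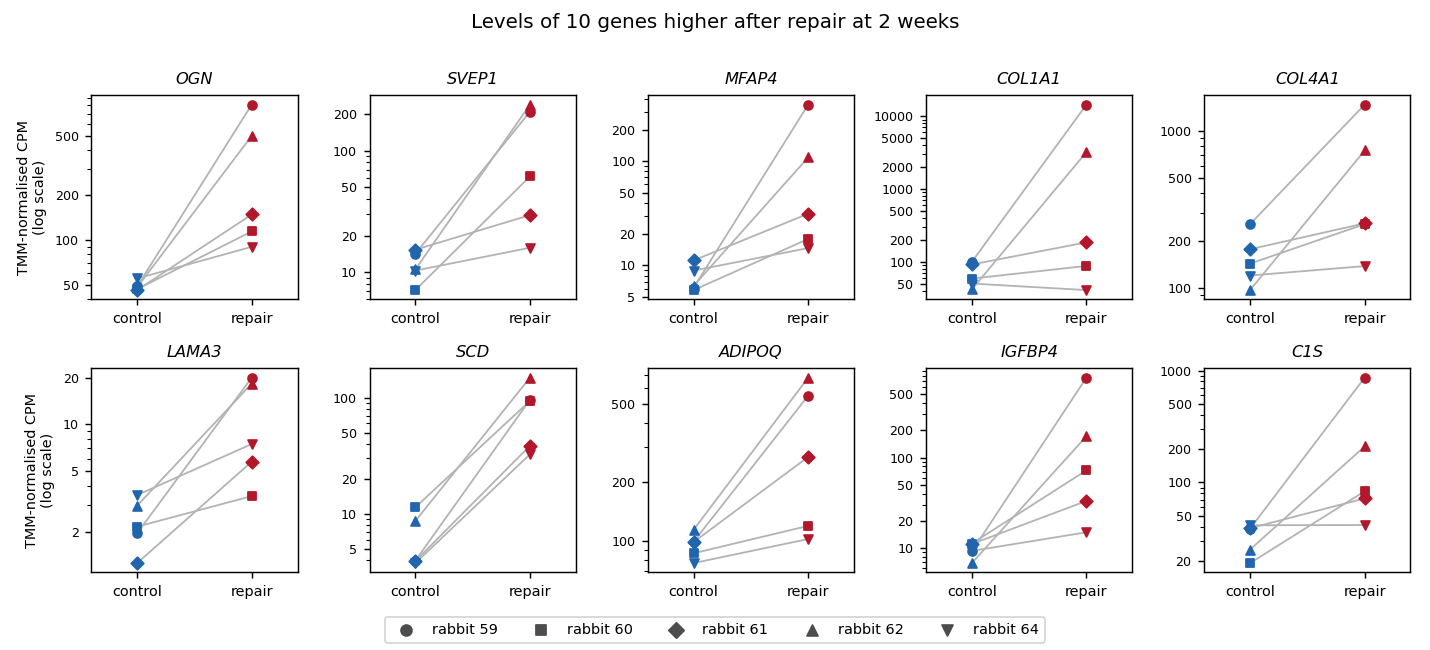
TMM-normalised CPM (log scale, own range in each panel) of 10 genes in control and repair muscle, a line joining the shoulders of each of the 5 rabbits. OGN lies at 45.9 to 55.0 CPM in control and 89.7 to 811 CPM in repair libraries, while COL1A1 in rabbit 64 is lower in repair, 40.7 against 50.1 CPM.

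Proteases that remodel matrix and their inhibitors were higher in 7 of 22 members (background 12.8%), lower in none (median log2FC 1.75, and 1.12 without rabbit 59). HTRA1, a secreted serine protease, rose from 20.2 ± 2.37 CPM to 90.1 ± 103 CPM (SD, n = 5) with no overlap (log2FC 1.5, SE 0.41, adjusted p = 0.0204). CTSK, cathepsin K, a protease that degrades collagen and is best known from osteoclasts, lay at 776, 36.6, 37.4, 194 and 15.8 CPM in repair and 25.1, 13.6, 15.1, 13.8 and 16.98 CPM in control muscle. Rabbits 59 and 62 were again far above the rest, and rabbit 64 lay below its control (log2FC 2.23, SE 0.69, adjusted p = 0.0308). ADAMTS5, an aggrecan-cleaving protease, rose from 2.004 ± 0.955 CPM to 5.505 ± 3.08 CPM (SD, n = 5; log2FC 1.49, adjusted p = 0.02702). None of the 22 was called without rabbit 59; with the block as well TIMP3, ADAMTS12, RECK and CTSK were (adjusted p 0.0325, 0.0395, 0.0408 and 0.0438). Leaving out repair 59 or 62 alone ended the call of HTRA1, CTSK and ADAMTS5 (0.0545 to 0.118), as did control 60 for CTSK and ADAMTS5 (0.06303 to 0.0631), control 59 for ADAMTS5 (0.0685) and control 61, 62 or 64 for CTSK (0.0586 to 0.0604).

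The stromal markers, genes of the fibro-adipogenic progenitors, gave 2 of 11 members higher (background 12.8%) and none lower (median log2FC 1.66, or 1.03 without rabbit 59). With the block 10 of 11 were higher, against 28.5% of genes with a symbol. PDGFRA (ENSOCUG00000000258), the receptor that defines these cells, lay at 186, 11.3, 18.3, 71.4 and 13.3 CPM in repair and 10.6, 7.56, 13.3, 9.13 and 11.9 CPM in control muscle. It was higher in 5 of 5 rabbits, by little in rabbit 64 (log2FC 1.68, SE 0.58, adjusted p = 0.0457). DPT, dermatopontin, which binds decorin and collagen, rose from 6.53 ± 0.836 CPM to 58.04 ± 59.6 CPM (SD, n = 5) with no overlap (log2FC 2.52, SE 0.67, adjusted p = 0.0181). DCN (decorin), CD34, CD248, OSR1 and THY1, the other defining markers, were not called, at log2FC 1.11, 0.87, 1.66, 1.65 and 1.35 (adjusted p 0.0585, 0.08102, 0.195, 0.05798 and 0.226). With the block 4 of these 5 were (0.0212, 0.00539, 0.0226 and 0.0106; DCN 0.0595). Without rabbit 59 no stromal marker was called (PDGFRA 0.205, DPT 0.0932), and with the block DPT, CDH11 and DDR2 were (0.0219, 0.0331 and 0.0419). PDGFRA also lost its call without repair 59, repair 62 or any 1 of the control libraries, and DPT without repair 59 alone (0.0605; PDGFRA 0.0703 to 0.1595).

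Genes of TGF-beta signalling, a main inducer of matrix in fibroblasts, were higher in 6 of 15 members (background 12.8%) and lower in none (median log2FC 0.91). Of these 6, THBS1, LTBP1 and LTBP2 are also counted among the 11 higher matrix glycoproteins. Without rabbit 59 none of the 15 was called, or 3 with the block, LTBP2, TGFBR2 and THBS1, and the median was 0.44. TGFBR2, the type II receptor that binds the ligand, lay at 219.8, 47.01, 47.05, 87.8 and 34.2 CPM in repair and 35.5, 25.1, 29.5, 21.5 and 26.01 CPM in control muscle. Every rabbit was higher in repair, and only the value of rabbit 64 fell within the control range (log2FC 1.31, SE 0.32, adjusted p = 0.0135; 0.0509 without rabbit 59 and 0.0331 with the block too). ACVR2A, a receptor of activins and myostatin, rose from 6.47 ± 1.74 CPM to 10.4 ± 3.096 CPM (SD, n = 5; log2FC 0.71, adjusted p = 0.0262). GREM1, a secreted antagonist of BMP ligands, had no count in any control library and 44 over the 5 repair libraries, at least 11.4-fold higher against a floor of 3 counts over the control group, with 1.77, 0.101, 0.0972, 0.821 and 0.166 CPM in repair. It is counted among the 6 but passed the filter in repair libraries alone. The calls of ACVR2A and GREM1 were lost without rabbit 59, with or without the block (0.2099 and 0.191, 0.162 and 0.0746). They were also lost without repair 59, repair 62 or control 59 or 62 (0.05005 to 0.139) and, for GREM1, control 60, 61 or 64 (0.0703 to 0.0727).

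Fat cells were represented by 4 genes, and 1 of them was higher (background 12.8% of genes with a symbol). ADIPOQ (ENSOCUG00000026268), adiponectin, a hormone made by adipocytes, lay at 549.5, 119.3, 268, 679 and 102 CPM in repair and 99.1, 86.4, 98.6, 114 and 77.05 CPM in control muscle. It was higher in 5 of 5 rabbits, clearly so in rabbits 59, 61 and 62, and by less in rabbits 60 and 64 (log2FC 1.43, SE 0.36, adjusted p = 0.0146). THRSP, a nuclear protein of fat-making cells, was at 1.45 to 5.35 CPM in repair and 0 to 0.932 CPM in control muscle, and LIPE, hormone-sensitive lipase, at 16.8 to 46.8 and 8.51 to 15.6 CPM. Neither overlapped between groups, against 7.97% of all genes tested, and neither was called (log2FC 3.17 and 1.07, adjusted p = 0.0902 and 0.153). Both were called with the block (0.00851 and 0.0317). THRSP passed the filter in repair libraries alone, which ties its direction to the groups. The median log2FC of the 4 genes was 1.25 and did not move without rabbit 59 (1.25), and within rabbits it was 1.13, 1.08, 1.20, 1.94 and 0.67. ADIPOQ was not called without rabbit 59 (0.0904) nor without repair 59 alone (0.0662); with rabbit 59 out and the block in, ADIPOQ and THRSP were called (0.0318 and 0.0349).

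Of 16 genes of fatty acid and sterol synthesis, 2 were higher, both named SCD, and none lower (median log2FC 0.35, or 0.26 without rabbit 59). This share is near the 12.8% of genes with a symbol. The second of them (ENSOCUG00000014801) lay at 14.5, 2.498, 3.66, 11.7 and 10.4 CPM in repair and 1.53, 2.67, 2.45, 1.97 and 3.91 CPM in control muscle. Rabbit 60 was below its own control and the groups overlapped (log2FC 1.64, SE 0.54, adjusted p = 0.0399). Its call was lost without rabbit 59 (0.224, or 0.0669 with the block) and in 7 of 10 fits with 1 library left out, those without repair 59 or 62 or any control library (0.0624 to 0.137).

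Macrophage markers were high in the repair libraries of rabbits 59 and 62. Within rabbits the median difference over the 13 genes was 5.03, 0.90, -0.23, 3.18 and -0.39 on the log2 scale, so that rabbit 60 was above its control too. None of the 13 was called, and all 13 had a log2FC above 0 (median 1.80). With the block all 13 were called higher, against 28.5% of genes with a symbol. Of the 13, 4 passed the filter in repair libraries alone, which ties their direction to the groups. CD163 (ENSOCUG00000003958), a scavenger receptor of tissue macrophages, lay at 133, 3.53, 0.389, 19.6 and 0.332 CPM in repair and 1.35, 0.828, 0.874, 0.718 and 0.435 CPM in control muscle. Rabbits 59 and 62 were high, rabbit 60 was above its control, and rabbits 61 and 64 were not (log2FC 2.73, SE 1.61, adjusted p = 0.215, or 0.00162 with the block). MRC1, the mannose receptor, was at 125, 5.14, 3.98, 47.7 and 1.57 CPM in repair and 2.39 to 5.19 CPM in control muscle, and CSF1R, the receptor that macrophages need to survive, at 100, 3.21, 2.35, 27.9 and 1.89 CPM and 1.52 to 3.24 CPM. Both were uncalled, with log2FC 1.80 and 2.08 (adjusted p 0.1902 and 0.154, or 0.004305 and 0.00345 with the block). TLR2 and SIGLEC1 came closest, at log2FC 2.27 (adjusted p = 0.0567) and 1.54 (0.0671). The 4 other defining markers, MPEG1, VSIG4, C1QB and C1QC, had a log2FC of 3.63, 2.2, 2.03 and 1.23 (adjusted p 0.154, 0.179, 0.167 and 0.312). Without rabbit 59 the median log2FC was 1.09, no marker was called, and with the block CD163 was (0.044).

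Genes shared by most leukocytes gave 3 of 19 higher (background 12.8%) and none lower (median log2FC 1.34, or 0.63 without rabbit 59): LYN, a kinase of the Src family, NCKAP1L, an actin regulator of blood cells, and ARHGDIB. Their log2FC was 1.04, 0.98 and 1.38 (adjusted p 0.0339, 0.0357 and 0.0485), and none was called without rabbit 59 (0.166, 0.179 and 0.1995), where with the block LCP1 was (0.0478), nor without repair 59, repair 62 or any 1 of the control libraries (0.0529 to 0.174). Within rabbits the median difference over the 19 genes was 4.22, 0.75, -1.16, 1.49 and 0.13 on the log2 scale, so that rabbit 61 was lower in repair. Of lymphocyte markers 3 were tested and none was called: CD96 was at log2FC 0.19, TRBC1 at 1.20 and IRF4 at -1.32 (adjusted p 0.697, 0.305 and 0.0787). They summed to 1.71 to 5.24 CPM in repair and 2.46 to 3.82 CPM in control muscle, near the filter, and IRF4 was called lower without rabbit 59 with the block (0.0245).

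The products of complement genes mark debris and microbes for removal and are made by stromal cells as well as macrophages. Complement genes were higher in 2 of 7 members (background 12.8%), lower in none (median log2FC 1.48, or 0.75 without rabbit 59). C1S (ENSOCUG00000014468), a protease of the classical pathway, lay at 864, 83.5, 72.03, 210 and 41.7 CPM in repair and 38.7, 19.1, 39.03, 25.1 and 41.5 CPM in control muscle. MASP1, a protease of the lectin pathway, lay at 38.9, 14.9, 14, 15.3 and 15.4 CPM in repair and 5.29, 6.21, 5.73, 8.103 and 8.05 CPM in control muscle, high in rabbit 59 and nearly equal in the other 4 repair libraries. Neither overlapped between groups (log2FC 2.06, SE 0.50, adjusted p = 0.0129 for C1S; log2FC 1.48, SE 0.32, adjusted p = 0.00837 for MASP1). Both stayed called in 10 of 10 fits with 1 library left out, but not without both libraries of rabbit 59 (0.0643 and 0.0585), and with the block C1S was (0.0307; MASP1 0.0535). Of 21 genes of antigen presentation and the interferon response 1, ZNFX1, was called higher (log2FC 0.44, adjusted p = 0.0464) and none lower, below the background of 12.8%. With the block 8 of 21 were, and without rabbit 59 none in either fit, with the median log2FC at 0.50 and 0.29. ZNFX1, a sensor of viral RNA, was not called without rabbit 59 (0.135), nor without repair 59, repair 62 or control 60, 61, 62 or 64 (0.0558 to 0.211). NLRC5, the activator of MHC class I genes, was next at log2FC 1.60 (adjusted p = 0.115).

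Endothelial markers were higher in 4 of 16 and lower in none (median log2FC 0.48, or 0.33 without rabbit 59). The background for the 3 lists of this paragraph was 12.8% of genes with a symbol called higher. FLI1, an endothelial and blood cell transcription factor, had a log2FC of 1.05 (adjusted p = 0.0216), CD93 of 0.57 (0.0383) and VWF, von Willebrand factor, of 0.84 (0.0407). The markers CDH5, TEK, ROBO4 and CLEC14A, which define the endothelium, were uncalled, at log2FC 0.46, 0.42, 0.42 and 0.50. Pericyte and smooth muscle markers gave 2 of 10 higher, MCAM (log2FC 1.09, adjusted p = 0.0156) and MYLK (0.87, 0.02197), and none lower (median log2FC 0.75, or 0.48 without rabbit 59). ACTA2, CSPG4, NOTCH3 and RGS5 were uncalled at 0.74, 0.24, 0.38 and 0.02, with RGS5 at -0.22 without rabbit 59. Of 3 nerve and Schwann cell markers L1CAM, an adhesion molecule of axons, was higher (log2FC 1.71, adjusted p = 0.0177), while CADM3 and LGI4 were at 1.42 and 1.05 (adjusted p 0.132 and 0.0928). No member of these 3 lists was called without rabbit 59, with or without the block, and none of the 6 called genes named was called without repair 59 (0.0592 to 0.175). FLI1, CD93, VWF and MYLK were also lost without repair 62 or control 61 (0.0513 to 0.0965), FLI1, CD93 and VWF without control 62 (0.0604 to 0.0725), CD93 and VWF without control 60 or 64 (0.06702 to 0.0807) and VWF without control 59 (0.0597).

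None of the 4 tenocyte and cartilage markers was called. KERA (keratocan, a proteoglycan of cornea and tendon) lay at 498, 3.53, 18.8, 166 and 2.32 CPM in repair and 2.697, 3.31, 1.65, 3.59 and 2.29 CPM in control muscle. Rabbits 59, 62 and 61 held the high values, and rabbits 60 and 64 lay at the control level. ACAN, aggrecan of cartilage, was at 197, 0.101, 1.26, 18.5 and 0.0829 CPM in repair and 0 to 0.518 CPM in control muscle. It passed the filter in repair libraries alone. The log2FC of KERA, ACAN, FMOD (fibromodulin) and THBS4 (thrombospondin 4) was 3.41, 4.01, 3.51 and 2.03 (adjusted p 0.131, 0.194, 0.278 and 0.105), and with the block all 4 were called higher (0.001897, 0.00131, 0.00385 and 0.0272). Without rabbit 59 and with the block KERA was (0.0235).

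Most subunits of the constitutive proteasome fell. Of 14 members 12 were lower and none higher, against a background of 8.52%, all 14 had a log2FC below 0 and none reached a 2-fold fall (median -0.47, or -0.33 without rabbit 59). PSMD14 (ENSOCUG00000001418), the enzyme of the regulatory lid that removes ubiquitin chains from substrates, lay at 32.7, 52.97, 60.4, 56.4 and 48.2 CPM in repair and 112, 94.1, 93.1, 90.2 and 82.6 CPM in control muscle. Every repair value lay below every control value, in rabbits 60, 61, 62 and 64 as in rabbit 59 (log2FC -0.94, SE 0.17, adjusted p = 0.00349; -0.73 without rabbit 59, adjusted p = 0.0341). PSMA4 (ENSOCUG00000013256), a subunit of the outer ring of the core, lay at 49.3, 85.2, 78.3, 64.6 and 65.8 CPM in repair and 113, 97.1, 86.3, 95.9 and 102 CPM in control muscle. PSMA1, another subunit of that ring, fell from 169 ± 24.3 CPM to 108 ± 26.5 CPM (SD, n = 5). The groups did not overlap for either (log2FC -0.54, SE 0.11, adjusted p = 0.00793 for PSMA4; log2FC -0.67, SE 0.15, adjusted p = 0.00963 for PSMA1). All 3 kept the call in 10 of 10 fits with 1 library left out. Without rabbit 59, 1 of 14 members was called lower, PSMD14, and with the block 4 were, PSMD14, PSMA1, PSMA4 and PSMB2, against 3.17% of genes with a symbol. Within rabbits the median difference over the 14 genes was -1.14, -0.18, -0.15, -0.54 and -0.38 on the log2 scale, below 0 in 5 of 5. Myofiber markers summed to 9380 and 15900 CPM in repair 59 and 62, below every control, and to 31500 to 44300 CPM in the other repair libraries, within the control range, and the part of fibre content in the falls was not tested.

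Genes of the mitochondrion fell too, each called one by less than 2-fold. The respiratory chain and ATP synthase gave 8 of 14 members lower (background 8.52%) and none higher (median log2FC -0.58, or -0.42 without rabbit 59). With the block 14 of 14 were lower, against 12.4%. COX7A2 (ENSOCUG00000013818), a subunit of cytochrome c oxidase, lay at 11.1, 28.5, 21.3, 19.1 and 20.6 CPM in repair and 32.9, 32.5, 27.4, 28.6 and 35.1 CPM in control muscle. Rabbit 60 lay within the control range, and the others below it (log2FC -0.71, SE 0.16, adjusted p = 0.00932). COX4I1 and COX5A, subunits of the same complex, had a log2FC of -0.69 and -0.75 (adjusted p 0.0219 and 0.0245). None of the 14 was called without rabbit 59 (0.0688, 0.07103 and 0.0871), and with the block NDUFAB1, which carries acyl groups in the mitochondrion, was (0.0408). COX4I1 and COX5A were also not called without repair 59, repair 62 or control 64 (0.0539 to 0.0939), nor COX5A without control 60 (0.0578).

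The mitochondrial ribosome makes the subunits encoded in mitochondrial DNA. It gave 10 of 28 members lower (background 8.52%) and none higher (median log2FC -0.46, or -0.35 without rabbit 59). MRPS18B lay at 14.5, 27.2, 23.5, 19.7 and 19.6 CPM in repair and 33.4, 34.4, 30.8, 36 and 31.2 CPM in control muscle, and MRPS30 fell from 23.7 ± 2.28 CPM to 14.96 ± 4.4 CPM (SD, n = 5). Both are proteins of the small subunit, and neither overlapped between groups (log2FC -0.71, SE 0.15, adjusted p = 0.00717 for MRPS18B; log2FC -0.75, SE 0.17, adjusted p = 0.00932 for MRPS30). MRPL11, of the large subunit, had a log2FC of -0.60 (adjusted p = 0.0209). Without rabbit 59 none was called (0.05101, 0.0613 and 0.0817), and with the block 5 of 28 were, MRPS30, MRPS18B, MRPL37, DAP3 and MRPL9, against 3.17%. MRPL11 was lost without repair 59 or 62 (0.0501 to 0.0885), and MRPS18B and MRPS30 kept their call in 10 of 10 fits.

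Of the citrate cycle and fatty acid oxidation 3 of 12 members were lower (background 8.52%) and none higher (median log2FC -0.46, or -0.22 without rabbit 59). The 3 were ETFA and ETFDH, which pass electrons from fatty acid oxidation to the respiratory chain, and ACAA2, which performs its last step. They had a log2FC of -0.61, -0.59 and -0.58 (adjusted p 0.0288, 0.0427 and 0.0318). In rabbits 60 and 61 the median over the 12 genes was slightly above 0 (0.07 and 0.08), against -1.33, -0.59 and -0.27 in rabbits 59, 62 and 64. No member was called without rabbit 59, and with the block ETFA was (0.0435). These 3 calls were also lost without repair 59 or control 60, 62 or 64 (0.0578 to 0.154), those of ETFDH and ACAA2 without repair 62 (0.0562 to 0.0754) and that of ETFDH without control 59 or 61 (0.05502 to 0.0592).

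Of 16 genes of glycolysis and glycogen 3 were lower (background 8.52%) and 1 higher (background 12.8%), with a median log2FC of -0.37, or -0.15 without rabbit 59. UGP2 (ENSOCUG00000002137), which makes the UDP-glucose that glycogen is built from, lay at 240.1, 449.6, 446, 322 and 484 CPM in repair and 885, 899.6, 649.5, 767 and 739 CPM in control muscle. No repair value reached the lowest control value (log2FC -1.04, SE 0.21, adjusted p = 0.00566; -0.85 without rabbit 59, adjusted p = 0.0495). TIGAR (ENSOCUG00000001952), a phosphatase that lowers glycolytic flux, lay at 9.86, 8.37, 9.14, 9.64 and 9.7 CPM in repair and 34.5, 28.8, 21.3, 18.98 and 19.6 CPM in control muscle. The 5 repair values were nearly the same and each lay below all controls, whose spread was wider (log2FC -1.35, SE 0.34, adjusted p = 0.0151; -1.24 without rabbit 59, adjusted p = 0.0853, or 0.0115 with the block). GYG1, glycogenin, the primer of glycogen, fell from 567 ± 141 CPM to 338 ± 162 CPM (SD, n = 5; log2FC -0.86, adjusted p = 0.0315), and the higher gene was PYGB, the brain form of glycogen phosphorylase (log2FC 1.10, adjusted p = 0.0427), named because it stood alone. GYG1 and PYGB were not called without rabbit 59 (0.232 and 0.143), nor GYG1 without repair 59, repair 62 or control 59, 60 or 64 (0.0578 to 0.117).

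Sarcomere and excitation-contraction genes gave 4 of 17 members lower (background 8.52%) and none higher (median log2FC -0.52, or -0.28 without rabbit 59). DES (ENSOCUG00000000968), desmin, the intermediate filament that ties the sarcomeres together, lay at 1140.0, 3856, 3967, 2623 and 3063 CPM in repair and 5960.0, 4733, 4332, 4810.0 and 4834 CPM in control muscle. Repair 59 was far below the other repair libraries, and these too lay below every control (log2FC -0.84, SE 0.23, adjusted p = 0.0217). LDB3 and TCAP, proteins of the Z-disc, had a log2FC of -0.89 and -1.01 (adjusted p 0.0263 and 0.0374). The fourth, SMPX, another gene of striated muscle structure, had a log2FC of -0.91 (adjusted p = 0.0383). Myofiber markers outside the Z-disc were uncalled: ATP2A1, the calcium pump of fast fibres, at -0.11, TNNT3, fast troponin T, at -0.22, CACNA1S, the voltage sensor, at -0.16, TRDN, triadin, at -0.57 and MYOM2, of the M-band, at -0.90 (adjusted p 0.878, 0.8001, 0.729, 0.0803 and 0.102). Without rabbit 59 no member of the list was called, with or without the block (DES 0.118 and 0.113), and DES, LDB3 and TCAP were not called without repair 59 alone (0.0628 to 0.126). LDB3 and TCAP also lost their call without control 59, 62 or 64 (0.0504 to 0.0635), and TCAP without repair 62 or control 60 or 61 (0.0639 to 0.0748).

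Among 13 myogenic regulators and growth factor genes 2 were higher and 1 lower (median log2FC 0.70, or 0.34 without rabbit 59). These shares, 15.4% and 7.69%, are near the 12.8% and 8.52% of genes with a symbol. FGFR1, a receptor of fibroblast growth factors, rose from 18.1 ± 3.82 CPM to 62.3 ± 57.1 CPM (SD, n = 5; log2FC 1.35, SE 0.38, adjusted p = 0.0237), and CDON, a surface protein that promotes myoblast differentiation, from 4.302 ± 0.749 CPM to 15.2 ± 13.2 CPM (SD, n = 5; log2FC 1.56, SE 0.46, adjusted p = 0.0265). FGF6, a growth factor expressed mainly in skeletal muscle, lay at 1.52, 3.63, 13.4, 14.9 and 4.23 CPM in repair and 21.8, 10.8, 18.2, 17.3 and 12.9 CPM in control muscle. It was lower in 5 of 5 rabbits, by little in rabbits 61 and 62 (log2FC -1.58, SE 0.48, adjusted p = 0.0287), and was not called with the block (0.0644). IGF1, insulin-like growth factor 1, was at 94.1, 4.04, 3.11, 18.5 and 1.24 CPM in repair and 0.435 to 2.72 CPM in control muscle and uncalled (log2FC 2.81, adjusted p = 0.0816), but called without rabbit 59 with the block (0.0429), as was FGFR1 (0.0453). CDON and FGF6 were not called without rabbit 59 in either fit (0.123 and 0.254, 0.0685 and 0.285), and FGFR1 not without the block (0.135). All 3 were lost without repair 59 (0.0896 to 0.162), FGFR1 and CDON without repair 62 or control 60 (0.0527 to 0.0619), CDON without control 62 or 64 (0.0522 to 0.0598) and FGF6 without control 59, 61 or 62 (0.0548 to 0.0583).

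Cell cycle genes were uncalled in all 19 members tested (median log2FC 0.43, or 0.12 without rabbit 59). With the block 6 of 19 were higher, near the 28.5% of genes with a symbol, and none was called without rabbit 59 in either fit. KIF20B, a kinesin of cell division, did not overlap between groups (1.94 to 6.004 against 0.762 to 1.66 CPM; log2FC 1.21, adjusted p = 0.0593), and DTL, a replication factor, was at log2FC 0.91 (adjusted p = 0.0882). The cytosolic ribosome was uncalled in 14 of 14 (median log2FC -0.13, or -0.05 without rabbit 59, where none was called in either fit). RPL24 was at -0.14 (SE 0.16) and 1 of the genes named RPL5, which has near copies in the genome, at -0.99 (SE 1.05), or 0.68 without repair 60.

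**Figure D4:**
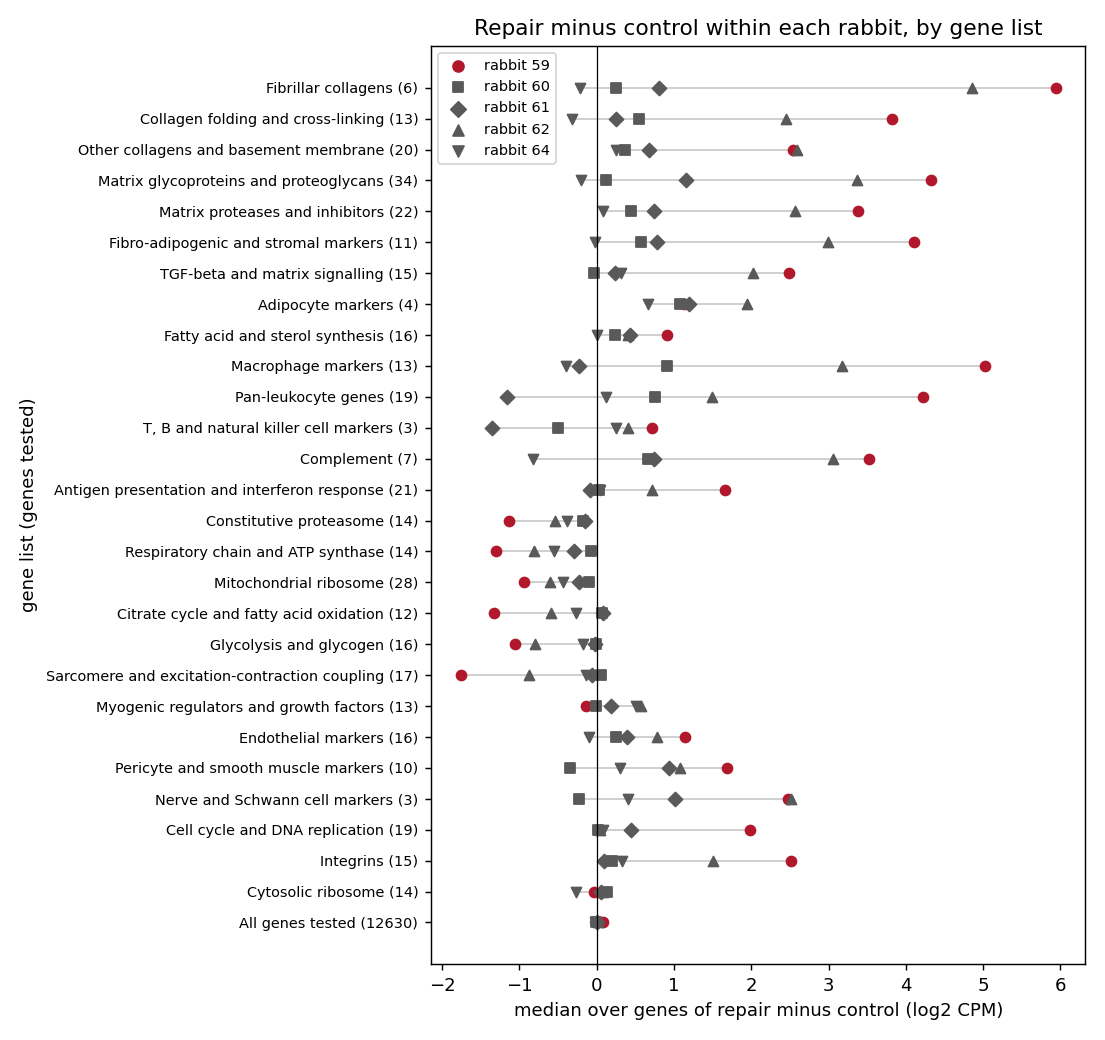
Median over the genes of each list of repair minus control within a rabbit (log2 CPM), 1 symbol per rabbit with rabbit 59 in red, lists with the number of genes tested, and all genes in the bottom row. Proteasome, respiratory chain and mitochondrial ribosome genes lie below 0 in 5 of 5 rabbits, adipocyte markers above 0 in 5 of 5 (0.67 to 1.94), and macrophage markers spread from -0.39 to 5.03.

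By the same rule, the 8 largest falls were those of FGF6, UCHL1, S100A1, ESRRB, PRIMPOL, ASB10, RIPOR2 and HORMAD1. Only 24 of the 123 lower DE genes had a symbol, and 22 met the rule. Larger falls, in genes without a symbol, are given below. ASB10 (ENSOCUG00000000242), a substrate receptor of a ubiquitin ligase, lay at 4.36, 15.1, 16.3, 10.5 and 17 CPM in repair and 28.8, 27.7, 40.9, 22.98 and 29.3 CPM in control muscle. No repair library reached the lowest control (log2FC -1.43, SE 0.29, adjusted p = 0.005798; -1.05 without rabbit 59, adjusted p = 0.0459). UCHL1 (ENSOCUG00000001353), a ubiquitin hydrolase abundant in nerve, lay at 5.38, 25.8, 18.7, 22.5 and 19.8 CPM in repair and 49.7, 57.05, 40, 41.9 and 47.8 CPM in control muscle. The groups did not overlap (log2FC -1.56, SE 0.39, adjusted p = 0.0146), and the call was lost without rabbit 59 (0.108) unless the block was added (0.0296). S100A1, a calcium-binding protein of striated muscle, fell from 205 ± 117 CPM to 71.95 ± 39.3 CPM (SD, n = 5; adjusted p = 0.0214). ESRRB, a nuclear receptor related to the regulators of oxidative metabolism, fell from 49.8 ± 11.8 CPM to 21.2 ± 11.3 CPM (adjusted p = 0.0304). RIPOR2 fell from 33.7 ± 22.02 CPM to 12.4 ± 4.82 CPM (adjusted p = 0.0151), PRIMPOL, a primase and polymerase, from 4.78 ± 1.13 CPM to 1.95 ± 1.14 CPM (adjusted p = 0.0274) and HORMAD1, a meiotic gene, from 20.7 ± 17.01 CPM to 6.22 ± 1.81 CPM (adjusted p = 0.0401). None of these 5 was called without rabbit 59, with or without the block (0.164, 0.229, 0.143, 0.0774 and 0.163). ASB10 was called in 10 of 10 fits with 1 library left out, while S100A1, ESRRB, RIPOR2, HORMAD1 and UCHL1 were not without repair 59 (0.0711 to 0.153). S100A1, ESRRB, PRIMPOL and HORMAD1 were also lost without control 59 or 60 (0.0521 to 0.105), ESRRB and PRIMPOL without control 61 (0.0502 to 0.0553), ESRRB and HORMAD1 without control 62 (0.06396 to 0.0866), PRIMPOL and HORMAD1 without repair 62 (0.0737 to 0.0739) and HORMAD1 without repair 64 (0.0539).

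**Figure D5:**
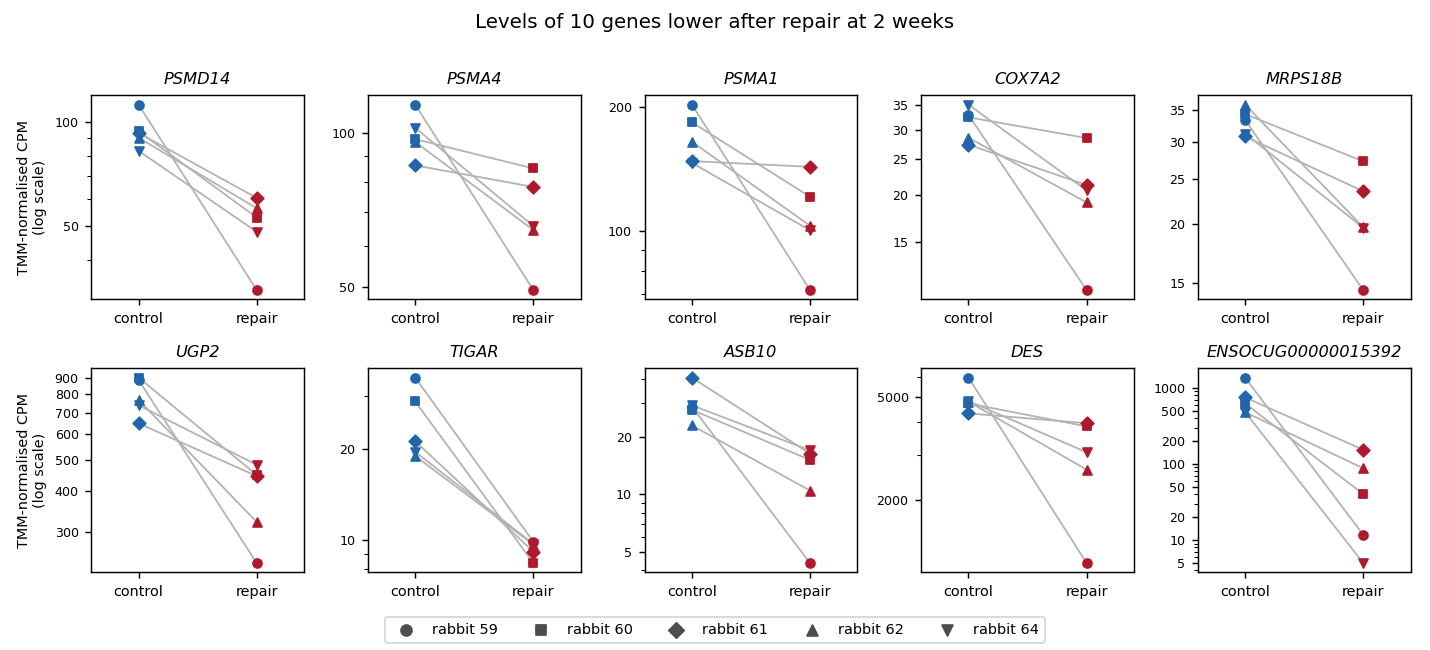
TMM-normalised CPM (log scale, own range in each panel) of 10 genes in control and repair muscle, a line joining the shoulders of each of the 5 rabbits. PSMD14 lies at 82.6 to 112 CPM in control and 32.7 to 60.4 CPM in repair libraries, and ENSOCUG00000015392 at 478 to 1360 and 4.99 to 154 CPM.

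Among genes without a symbol, 2 that rose and 2 that fell are given. ENSOCUG00000015392 lay at 11.7, 40.2, 154, 87.7 and 4.99 CPM in repair and 1360.0, 621, 747, 478 and 481 CPM in control muscle. It was lower in 5 of 5 rabbits with no overlap. Its log2FC was -4.44 (SE 0.98, adjusted p = 0.00908; 0.056 without rabbit 59 and 0.01599 with the block too). ENSOCUG00000008404 fell from 45.5 ± 25.9 CPM to 2.37 ± 2.904 CPM (SD, n = 5; log2FC -4.73, adjusted p = 0.0334, or 0.145 without rabbit 59). ENSOCUG00000008561 lay at 320.2, 51.96, 36.8, 146 and 24.9 CPM in repair and 6.64, 3.83, 5.44, 9.44 and 2.72 CPM in control muscle, with no overlap (log2FC 3.80, SE 0.73, adjusted p = 0.00505; 3.39 without rabbit 59, adjusted p = 0.0322). ENSOCUG00000009086, which passed the filter in repair libraries alone, rose from 0.653 ± 0.227 CPM to 7.69 ± 4.401 CPM (SD, n = 5, log2FC 3.40, adjusted p = 0.0404). What these genes encode is not given in the sources used here. ENSOCUG00000008404 and ENSOCUG00000009086 were not called without repair 59, repair 62 or control 59, 60, 61 or 62 (0.0526 to 0.107), and the latter not without control 64 (0.0872). Without rabbit 59 the log2FC of ENSOCUG00000009086 was 3.39, uncalled (0.138) but called with the block (0.0167).

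Whether the change at 2 weeks differs from that of the neighbouring times was tested directly, in 8 libraries each of 1 and 4 weeks. Library names begin with WRR for all of 1 and 8 weeks and with X for all of 2 and 4 weeks. Time and library series therefore cannot be told apart between 2 and 1 weeks. With limma-voom no gene had a repair effect that differed between 2 and 1 weeks at an adjusted p under 0.05 (669 at an unadjusted p under 0.05, lowest adjusted p 0.349). Nor did any between 2 and 4 weeks (353 at that level, lowest adjusted p near 1). edgeR gave 0 genes in each too (819 and 604 at an unadjusted p under 0.05), and DESeq2 3 and 1. The 3 were CYP27A1, a sterol hydroxylase, ENSOCUG00000014903 and ENSOCUG00000005712, and the 1 was ENSOCUG00000023169. ENSOCUG00000005712 has counts in 16 of the 34 libraries and ENSOCUG00000023169 in 20, with fitted differences of 24.2 and -21.3 on the log2 scale. CYP27A1 had a log2FC of 0.34 at 2 weeks and 1.95 at 1 week, a difference of -1.61 (SE 0.33, adjusted p = 0.349) by limma-voom.

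Values at the other times are given side by side, with 1 and 8 weeks from the WRR series of libraries and 2 and 4 weeks from the X series. For the matrix lists the median log2FC at 1, 2, 4 and 8 weeks was 2.70, 2.19, 1.79 and 0.77 for fibrillar collagens, 1.55, 2.10, 1.17 and 0.51 for matrix glycoproteins and 1.38, 1.47, 1.08 and 0.27 for minor collagens and basement membrane. Without rabbit 59 the 2-week medians were 1.39, 1.34 and 1.08, with glycoproteins then below their 1-week value. Macrophage markers stood at 1.14, 1.80, 0.95 and 0.37 and adipocyte markers at 1.70, 1.25, 2.08 and 0.78, with 2-week values of 1.09 and 1.25 without rabbit 59. Proteasome genes stood at -0.24, -0.47, -0.22 and -0.06 and respiratory chain genes at -0.66, -0.58, -0.38 and 0.02 (-0.33 and -0.42 at 2 weeks without rabbit 59). OGN had a log2FC of 1.94, 2.17, 2.01 and 0.87 and SCD of 3.22, 3.60, 3.73 and 1.39. UGP2 was at -0.88, -1.04, -0.08 and -0.11, and DES, near 0 at 1 week, at 0.01, -0.84, -0.43 and 0.01. The difference between 2 and 4 weeks was -0.96 (SE 0.32, adjusted p = 0.9998) for UGP2, and that between 2 and 1 weeks -0.85 (SE 0.37, adjusted p = 0.867) for DES, neither past the threshold.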

How the data were processed

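RNA of 34 muscle pieces was sequenced by the authors with a stranded poly(A) kit (75 bp single reads), aligned with STAR to the rabbit genome OryCun2.0 and counted per Ensembl gene with RSEM. The deposited values are these expected counts, not normalised, and 0 of the table's sample columns were left unused. Expected counts of 33 libraries (the study's outlier, the repair library of rabbit 3 at 8 weeks, left out) were scaled by TMM and tested with limma-voom in R 4.3.3 (package versions: limma 3.58.1; edgeR 4.0.16), with Benjamini-Hochberg adjusted p over 12630 genes; for edgeR and DESeq2 1.42.0 they were rounded. Symbols came from the study's supplementary tables (3308 of the genes tested). The shoulders pair by rabbit per the labels: the residuals of a repair library correlated with those of its own control at 0.13 to 0.299, highest with its own control in 5 of 5, and a rabbit block was fitted beside the main test. The 27 gene lists and the members were chosen with earlier results of these data known, and a list chosen on them is no independent evidence of its direction. Some genes, such as DPT, THRSP, C1QB and C1QC, are in more than 1 list, so list counts are not independent of each other.

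Named genes were the 8 largest rises and falls among DE genes with a symbol, a mean log2 CPM not under 1 and 5 of 5 rabbits with the same direction, the 2 largest each way without a symbol, up to 3 members of smallest adjusted p per list, and the defining cell type markers. Genes called only without rabbit 59 or only by DESeq2, and PYGB, SMPX and IGF1, were named after their values were seen. Intervals cover counting error only. The script was tested on simulated data. Alternatives were 14 other fits and filters and the 10 libraries of 2 weeks left out in turn. The p-values measure the spread among 5 rabbits per group and that of the other weeks.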

Additional observations from a re-analysis of the deposited data

Results flagged for a closer look

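In 6 of 48 sets of 5 libraries a single library stood apart from the other 4. Its gap to the nearest library, divided by the range of the group, passed Dixon's critical value of 0.71. For independent normal values chance gives about 1 in 20. These sets share libraries and include CPM of genes picked for their change, so the count cannot be read against that rate. The correlation of a library with the rest of its group was lowest in the repair library of rabbit 59, with a gap of 0.874 of the range. That library was also far above the other repair libraries for IGFBP4 (759 CPM, gap 0.789), MFAP4 (350.4 CPM, gap 0.718) and ENPP3 (39.5 CPM, gap 0.804). The control library of the same rabbit was above the other controls for RIPOR2, with a gap of 0.724, and the repair library of rabbit 61 above the other repair libraries for ENSOCUG00000008404, with a gap of 0.798. IGFBP4, MFAP4 and ENPP3 were called in 10 of 10 fits that left out 1 library, RIPOR2 in 9 and ENSOCUG00000008404 in 4. The cause of these differences was not tested.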

How the results depend on the processing

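Against 631 higher and 123 lower DE genes, the counts were 1685 higher with the rabbit as a replicate block, 954 with an estimated correlation between shoulders (0.176), 1893 with edgeR and 1899 with DESeq2, and 272 and 49 with all 34 libraries, 210 and 26 with sample quality weights, 4 and 1 with the 2-week libraries alone (SCD, ENSOCUG00000011380, ENSOCUG00000013514 and ENSOCUG00000013802, and TIGAR), and 99 and 16 alone with the block. Without rabbit 59 they were 38 and 5, and 374 and 35 with the block. Leaving out 1 library gave 91 to 1420 higher and 19 to 213 lower genes. Median-ratio size factors and the other filters stayed within 1.5 times of both counts. The difference between 2 and 1 weeks gave 1 gene without a filter (ENSOCUG00000025067, which has no counts at 2 weeks) and 3 with DESeq2, and that between 2 and 4 weeks 1 with DESeq2. None of the 73 named genes called in the main test changed sign in these fits, while 5 of the uncalled ones did in at least 1 (RPL5, TNNT3, ATP2A1, CACNA1S and RGS5). The 73 were called on libraries that these fits share, so a kept sign is no independent evidence. The block ended the calls of COL1A2 and FGF6 and no other named call, and added 25. Without rabbit 59, 63 named calls were lost. The cause of these differences was not tested. Residual degrees of freedom were 25 in the main fit, 12 with the rabbit as a block and 8 in the 2-week libraries alone. GREM1 and ADAMTS3 rest on few counts, mostly of repair 59 and 62. The depth of 9859418 to 12332438 counts leaves a gene at 1 CPM with about 10 to 12 counts a library.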
